A study of Drosophila melanogaster with 16 samples.

Results

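The circadian clock genes of Drosophila were followed across age in motor neurons (MNs). The set holds 8 genes, period (per), timeless (tim), vrille (vri), Par-domain protein 1 (Pdp1), clockwork orange (cwo), Clock (Clk), cycle (cyc) and cryptochrome (cry). Its members were all array features (probes) whose accession belongs to 1 of these genes, which gave 25 of the 45366 features and 8 of the 12946 genes on the array. The genes were chosen by name and not by a measured value, although earlier results of these data were known.

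RNA came from GFP-positive MNs of female flies, in which the D42 driver expressed GFP in MNs. Per the paper, the cells were dissociated from the dissected thoracic ganglion and then sorted by flow cytometry. Each array held cDNA from 1 pool of 5 flies, amplified before labeling with Cy3. The arrays covered ages of 7 d (n = 5), 35 d (n = 5) and 45 d (n = 6), and all flies aged in a light/dark cycle. The time of day at which flies were collected is not given in the sources used here. All groups share the strain, the driver and GFP. A sorted pool is defined by the dissected tissue and D42 activity. Fewer cells of a type and less RNA per cell therefore cannot be told apart.

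In the fly clock, the proteins of Clk and cyc form an activator that turns on per, tim, vri, Pdp1 and cwo. The per and tim proteins return to the nucleus and block that activator, while vri represses and Pdp1 activates transcription of Clk, and cry is a light sensor that leads to the loss of tim protein. In clock cells the mRNAs of per, tim and vri peak at about the opposite time of day to those of Clk and cry. The best known clock cells are small groups of brain neurons, photoreceptors and glia, and MNs are not among the classical pacemakers.

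Signals are given as log2 intensity minus the 75th percentile of the array, so that 0 marks a feature at that percentile. Between 61.1% and 67.1% of spots were well above background by the scanner's own flag on 15 arrays. The sixteenth, replicate 4 of 45 d, had 56.7%, and its median signal over all features was -6.36 against -4.72 to -3.92 on the other arrays. All 7-d arrays lay in row 2 of their slide and all 35-d arrays in row 1, and the 45-d arrays lay 3 in each, so that for 7 d against 35 d age and slide row cannot be told apart. Of the marker lists, all 6 neuronal genes were well above background on at least 8 of 16 arrays, and so were 3 of the 5 MN genes with a named feature, all 7 glial genes, all 6 muscle genes and 4 of 5 photoreceptor genes. The summed linear level of the glial genes was 41.1 to 71.2 at 7 d, 36.8 to 59.6 at 35 d and 27.7 to 50.4 at 45 d, in units of the 75th percentile. That of the photoreceptor genes was 0.0339 to 0.217, 0.0136 to 0.123 and 0.052 to 0.251, and that of the 2 clock neuron genes 0.0373 to 0.349, 0.0117 to 0.229 and 0.0192 to 0.285. The summed level of the muscle genes was 0.878 to 8.38, 2.47 to 8.54 and 5.61 to 19.2. The part of these cells in the clock gene signals was not tested.

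The clock genes were not measured equally well. Of the 25 features, 18 were well above background on all 16 arrays, and these belong to 7 genes, namely all 8 features of Pdp1, 3 of cwo, both of cyc, both of cry and 1 each of per, tim and vri. Another vri feature reached this on 15 arrays. The only feature of Clk was well above background on 5 of 16 arrays, at -5.19 on the brightest and -10.84 on the dimmest, so that Clk had no usable level on most arrays. Of the other features, 1 of per was not well above background on any array and the remaining ones were so on 6 to 10 arrays. The values below therefore come from the brightest feature of each gene. For the means over all features, counts past the threshold and correlations are given, and their differences between ages are not.

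Across age the clock genes as a group stayed below the threshold between pairs of ages. Among the 25 features, 0 passed an adjusted p under 0.05 and a 2-fold change between 7 d and 35 d, where 0.097% of all features did (limma, Benjamini-Hochberg over all features). The count was also 0 between 7 d and 45 d, against 0.375% of all features, and 0 between 35 d and 45 d, against 0.0154%. The shares of all features depended on replicate 4 of 35 d, without which 11% passed between 7 d and 35 d, with 0 clock features among them. At an unadjusted p under 0.05 there were 5 (27.2% of all features), 2 (8.46%) and 3 (7.85%) in the same order. In the F test over the 3 ages, 1 clock feature passed at an adjusted p under 0.05, against 0.582% of all features, and 4 at an unadjusted p under 0.05, against 20.7%. Without replicate 4 of 35 d, 3 clock features passed the F test, against 8.34% of all features. They were the bright features of tim and vri and a per feature that was not well above background on any array. For gene means the counts of clock genes past the threshold were 0 of 8 in each comparison, against 0.1% of genes between 7 d and 35 d, 0% between 7 d and 45 d, 0.00772% between 35 d and 45 d and 0.0695% in the F test.

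The median log2 difference of the 18 features that cleared background on all arrays was 0.09 from 7 d to 35 d, 0.07 from 7 d to 45 d and -0.04 from 35 d to 45 d. It was -0.05, -0.05 and -0.01 over all 19673 features of the array that did so. Over all 45366 features it was -0.41, -0.20 and 0.21, so that the shift of the whole table came with the dim features. The sizes of the single differences were uneven, with tim, vri and per at one end and Pdp1 at the other.

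**Figure D1:**
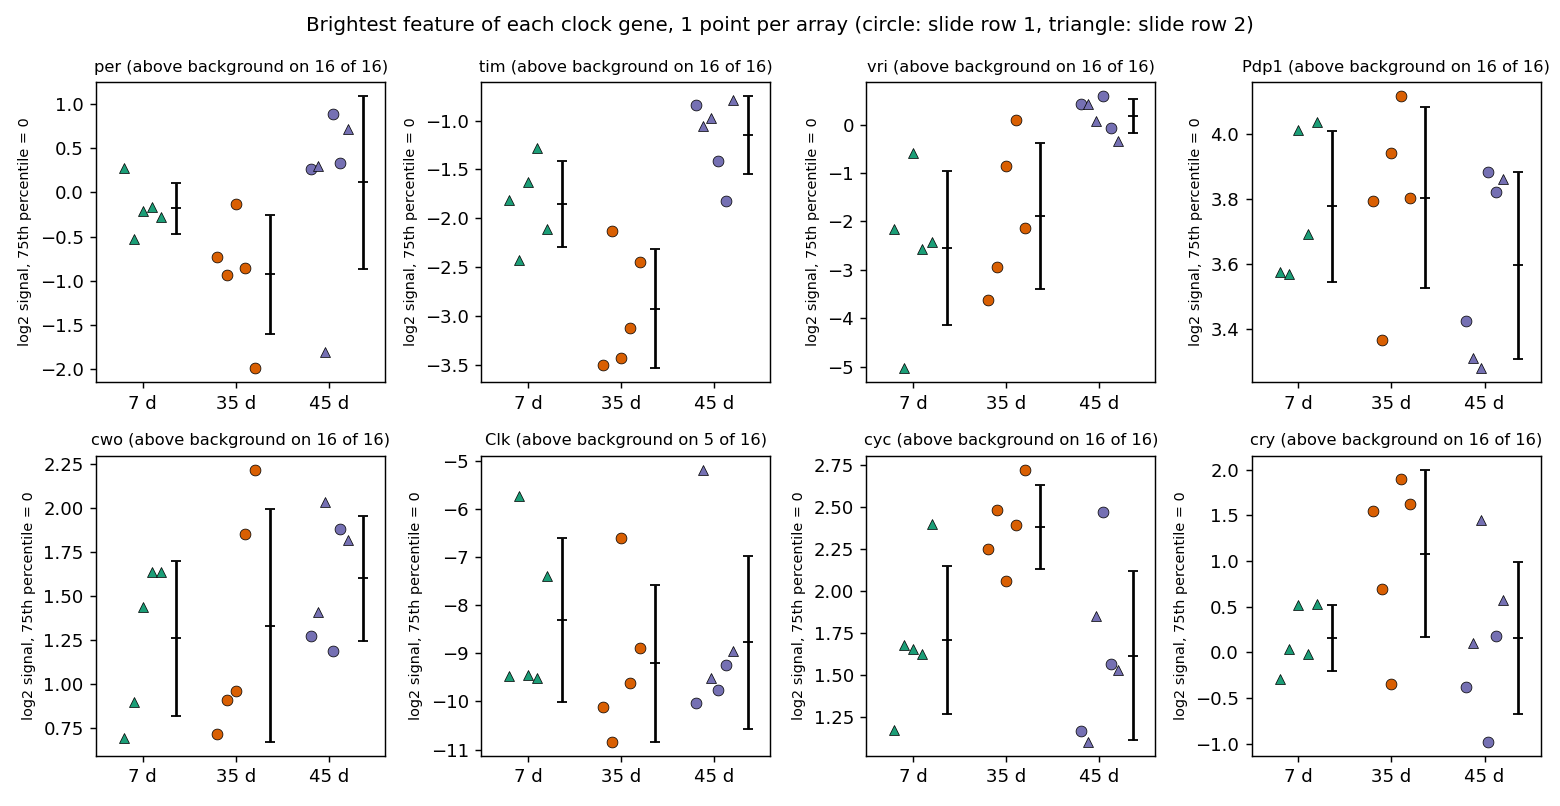
Signal of the brightest feature of each clock gene on every array (y axis, log2 with the 75th percentile of the array at 0) against age (x axis), circles for slide row 1 and triangles for slide row 2, with the mean and SD beside each age. The 45-d points of tim lie above all 35-d points, the 45-d points of vri lie above all 7-d points, and the Clk feature was well above background on 5 of 16 arrays only.

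The feature of tim, whose protein carries per into the nucleus and is lost in light, was the clock feature that passed the F test over the 3 ages (A_09_P030301, adjusted p = 0.0317, limma). Its signals were -1.81, -2.43, -1.63, -1.28 and -2.11 at 7 d. At 35 d they were -3.49, -2.13, -3.43, -3.12 and -2.45. At 45 d they ran from -1.83 to -0.79 with a median of -1.01 and a mean of -1.15 ± 0.40 (SD, n = 6). Every 45-d array lay above every 35-d array, whereas the 7-d arrays overlapped both other ages. Between 7 d and 35 d, 0 of the 25 clock features had groups that did not overlap, against 4.37% of all features. Non-overlapping groups were seen for this 1 clock feature between 35 d and 45 d, against 0.913% of all features in either direction and 0.643% with 45 d above 35 d.

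The tim signal was 1.78 ± 0.32 (SE) higher on the log2 scale at 45 d than at 35 d, a 3.43-fold difference, with an adjusted p of 0.305 by limma. The exact two-sided permutation test gave p = 0.00433, the smallest value that 5 against 6 arrays allow. Within slide row 1, where both ages are present, the difference was 1.56. From 7 d to 35 d it was -1.07 ± 0.34 (adjusted p = 0.0921 by limma, exact permutation p = 0.0159), and from 7 d to 45 d 0.70 ± 0.27 (adjusted p = 0.511, exact permutation p = 0.0303). Within slide 1 the step from 35 d to 45 d was 2.06 and within slide 2 it was 1.44. The 2 spots of this feature differed by a median SD of 0.0229 within an array, while pools of one age differed by an SD of 0.484. The F test call was lost in 11 of 26 alternatives, namely median scaling (adjusted p = 0.306), the replicate block (0.216), a variance trend with robust moderation (0.0803) and 8 of the 16 fits that left out 1 array. Those 8 were the fits without replicate 1 of 7 d (0.0613), 3 of 7 d (0.0506), 1 of 35 d (0.0907), 3 of 35 d (0.0988), 1 of 45 d (0.0675), 2 of 45 d (0.0654), 3 of 45 d (0.0686) and 6 of 45 d (0.0633). The second tim feature was well above background on 7 of 16 arrays and did not pass any test.

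The per gene encodes the partner of tim in repression, and its bright feature (A_09_P044046) had signals of 0.27, -0.52, -0.21, -0.17 and -0.28 at 7 d. At 35 d they were -0.74, -0.93, -0.13, -0.85 and -1.99. At 45 d replicate 3 lay at -1.81, and the other 5 arrays lay between 0.26 and 0.88. The 45-d arrays were thus high except for 1 pool, and the ages overlapped. From 7 d to 35 d the difference was -0.75 ± 0.33 (adjusted p = 0.184 by limma, exact permutation p = 0.0397), and from 35 d to 45 d it was 1.04 ± 0.50 (adjusted p = 0.456, exact permutation p = 0.0779). It was 0.30 ± 0.44 from 7 d to 45 d, and -0.08 among arrays of slide row 2. The other 3 per features were well above background on 10, 6 and 0 of the 16 arrays, and no difference is given for them.

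The vri gene encodes a repressor of Clk and is a direct target of the Clk and cyc activator. Its bright feature (A_09_P107180) had signals of -2.16, -5.03, -0.59, -2.57 and -2.42 at 7 d. At 35 d they were -3.61, -2.94, -0.85, 0.10 and -2.13, and at 45 d they ran from -0.33 to 0.59 with a median of 0.25. Pools differed widely at the 2 younger ages (SD of 1.60 and 1.51) and little at 45 d (SD of 0.35). All 45-d arrays lay above all 7-d arrays, which was so for this 1 clock feature and for 0.676% of all features, while 1.37% of all features had groups that did not overlap in either direction.

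The vri difference from 7 d to 45 d was 2.74 ± 0.63, or 6.67-fold, with an adjusted p of 0.157 by limma and an exact permutation p of 0.00433. Within slide row 2 it was 2.61. From 35 d to 45 d it was 2.07 ± 0.60 (adjusted p = 0.456 by limma, exact permutation p = 0.0173), and from 7 d to 35 d it was 0.67 ± 0.91 (adjusted p = 0.696). Leaving out replicate 3 of 7 d, the brightest of its age, brought the difference between 7 d and 45 d past the threshold (3.23, adjusted p = 0.0383 by limma). In that fit 0.414% of all features passed. The second vri feature (A_09_P031491) was 2.35 ± 1.26 (SE) higher at 45 d than at 7 d, with an adjusted p of 0.646 by limma. This value depended on replicate 2 of 7 d, which was not well above background at -9.41, and without it the difference was 1.31 ± 1.03, or 2.48-fold in place of 5.10-fold. From 35 d to 45 d it was 0.29 ± 1.07, and -0.40 ± 1.01 without replicate 2 of 35 d. Pool deviations of the second feature followed those of the first only loosely (Pearson's r = 0.53, permutation p = 0.0641; Spearman's rho = 0.30, p = 0.266; r = 0.35 without the 2 arrays farthest from the median).

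Pdp1, the activator of Clk that works against vri, was the steadiest clock gene. Its 8 features lay at means of 2.24 to 3.80 at every age. Their log2 differences ran from -0.47 to 0.27 between 7 d and 35 d, from -0.26 to 0.30 between 7 d and 45 d and from -0.22 to 0.21 between 35 d and 45 d, each with an SE of 0.16 to 0.23. The lowest adjusted p among them was 0.205 by limma. The SD between pools of one age was 0.179 to 0.288, and only 1.5% to 15.2% of the 19673 features that cleared background on all arrays varied less (median SD 0.495). Features were not matched for signal level in this ranking, and the part of signal level in it was not tested. The feature annotated to transcript FBtr0306535 (A_09_P195460) had the -0.47 between 7 d and 35 d (adjusted p = 0.205 by limma, exact permutation p = 0.0317), and the other 7 features were higher at 35 d by 0.03 to 0.27.

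The vri feature stood at the other end of this measure. Its SD between pools of one age was 1.24, larger than that of 91.8% of those features. For the 2 cry features the SD was 0.751 and 0.912 and for per it was 0.728, larger than in 72.9%, 81.5% and 71.3% of features. For tim it was 0.484, close to the median feature.

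**Figure D2:**
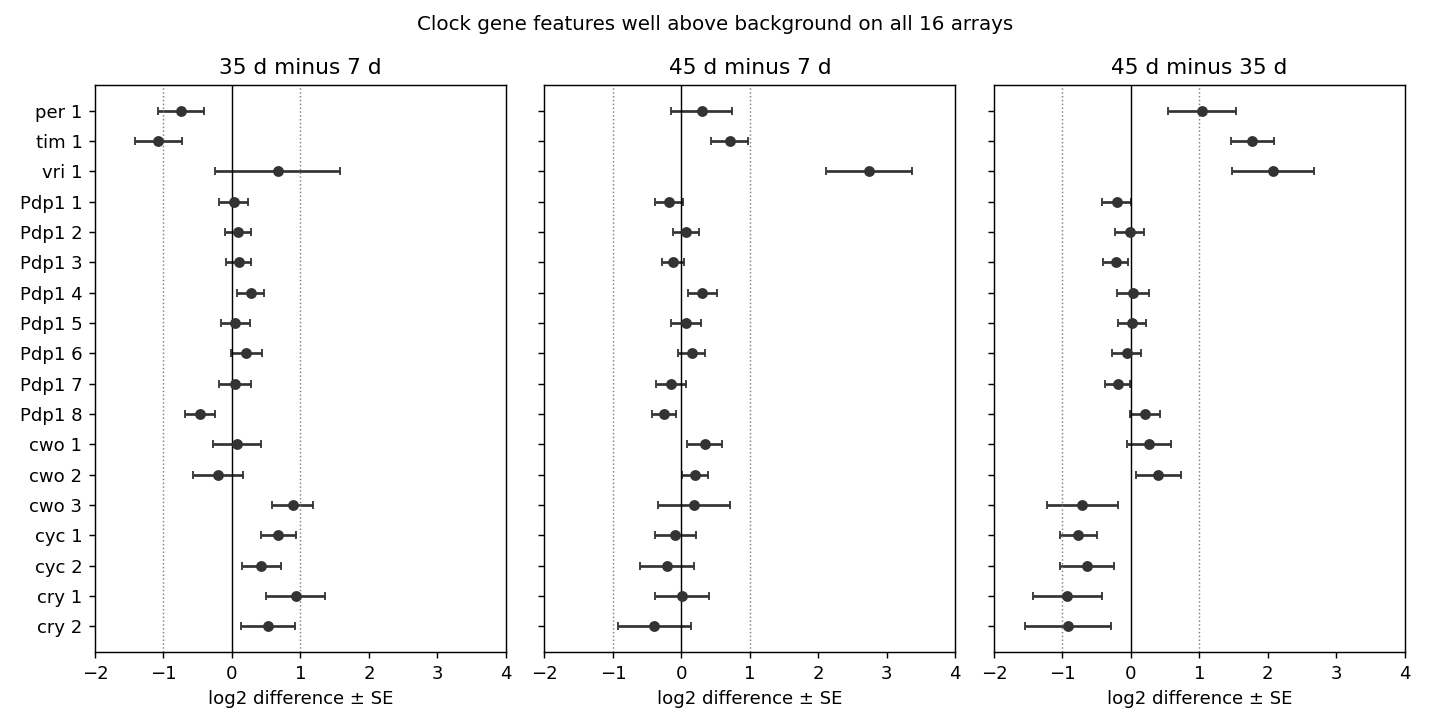
Log2 differences between ages (x axis) with their SE for the 18 clock features well above background on all 16 arrays (y axis, features of one gene numbered from the brightest), dotted lines marking a 2-fold change. The tim, vri and per features lie beyond 2-fold at 45 d against 35 d, the 8 Pdp1 features lie close to 0 in each panel, and the cyc and cry features lie above 0 at 35 d against 7 d and below 0 at 45 d against 35 d.

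Of the 4 features of cwo, a repressor that competes with Clk and cyc for their binding sites, the brightest (A_09_P073486) was at 1.26 ± 0.44 (SD, n = 5) at 7 d, 1.33 ± 0.66 (n = 5) at 35 d and 1.60 ± 0.35 (n = 6) at 45 d. Its differences were 0.07 ± 0.35, 0.34 ± 0.26 and 0.27 ± 0.32 (SE) from 7 d to 35 d, 7 d to 45 d and 35 d to 45 d. Another feature (A_09_P051051) was 0.89 ± 0.30 higher at 35 d than at 7 d (adjusted p = 0.0969 by limma, exact permutation p = 0.0317), while A_09_P118040 was at -0.20 ± 0.36. The dim feature included, 3 of the 4 cwo features had higher means at 35 d than at 7 d, and the difference between features was not tested.

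The activator side of the loop was represented by cyc, since Clk was mostly below background. The brighter cyc feature (A_09_P132880) had signals of 1.17, 1.68, 1.65, 1.63 and 2.40 at 7 d. At 35 d they were 2.25, 2.48, 2.06, 2.39 and 2.72. At 45 d they ran from 1.1 to 2.47 with a median of 1.55. The 35-d arrays were high and close together (SD of 0.25), and 1 array of each other age reached into their range.

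The cyc signal was 0.68 ± 0.25 (SE) higher at 35 d than at 7 d (adjusted p = 0.123 by limma, exact permutation p = 0.0317). It was -0.77 ± 0.27 at 45 d relative to 35 d (adjusted p = 0.456 by limma, exact permutation p = 0.0216) and -0.09 ± 0.30 at 45 d relative to 7 d. The second cyc feature had differences of 0.43, -0.64 and -0.21. The 2 cyc features deviated together from pool to pool (r = 0.81, permutation p = 0.00063; rho = 0.78, p = 0.00209; r = 0.68 without the 2 farthest arrays). For Clk no fold is given, since most of its arrays were below background at each age (2 of 5, 2 of 5 and 1 of 6 well above it).

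The brighter feature of cry (A_09_P091155) had signals of -0.29, 0.04, 0.51, -0.02 and 0.53 at 7 d. At 35 d they were 1.55, 0.69, -0.35, 1.89 and 1.62. At 45 d they ran from -0.98 to 1.45 with a median of 0.14. At 35 d, 4 arrays lay above all 7-d arrays and replicate 3 lay below them. From 7 d to 35 d the difference was 0.93 ± 0.43 (SE, adjusted p = 0.195 by limma, exact permutation p = 0.0873), from 35 d to 45 d it was -0.93 ± 0.51 (adjusted p = 0.456, exact permutation p = 0.113), and from 7 d to 45 d it was 0.00 ± 0.39. The second cry feature gave 0.53, -0.92 and -0.39. Among the 45-d arrays, the 3 in slide row 1 differed from the 3 in row 2 by -1.10 and -1.62 for the 2 cry features, -0.42 for tim, 0.75 for per and 0.26 for vri. The exact permutation p-values were 0.2, 0.1, 0.3, 0.5 and 0.4, of which 0.1 is the smallest that 3 against 3 arrays allow. The 2 cry features tracked each other closely over the pools (r = 0.90, permutation p = 0.0001; rho = 0.87, p = 0.0005; r = 0.85 without the 2 farthest arrays), so that the spread of cry between pools was shared by its 2 probes. Adjusted over the 3 genes with a feature pair tested in this way, the p-values of r were 0.0641 for vri, 0.000945 for cyc and 0.0003 for cry, and those of rho were 0.266, 0.00314 and 0.0015.

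Set side by side, the brightest features of the 7 genes with a usable level went different ways. At 35 d relative to 7 d they read -0.75 for per and -1.07 for tim, 0.68 for cyc and 0.93 for cry, and 0.67 for vri, 0.07 for cwo and 0.03 for Pdp1. At 45 d relative to 35 d they read 1.04 for per and 1.78 for tim, -0.77 for cyc and -0.93 for cry, and 2.07 for vri, 0.27 for cwo and -0.21 for Pdp1. The signs of per and tim were thus opposite to those of cyc and cry in both comparisons, while vri, cwo and Pdp1, which answer to the same activator as per and tim, differed by less than their SE in the first. These values share the 35-d arrays, so the second set is not independent of the first. None of these differences between 2 ages passed the threshold. From 35 d to 45 d the difference of per was 0.18 within slide 1 and 2.06 within slide 2. For cry it was -0.24 and -1.84, for the second cry feature -0.01 and -2.06, and for cyc -0.89 and -0.70. The steps of per and cry at 45 d thus came mostly from slide 2. The summed levels of the neuronal, muscle, hemocyte, tracheal and photoreceptor lists had their lowest medians at 35 d, like the means of per and tim. For the photoreceptor genes the medians were 0.115 at 7 d, 0.0241 at 35 d and 0.0889 at 45 d, with ranges that overlapped between ages. Medians of the clock neuron genes (0.0556, 0.110 and 0.0800) and the MN genes were highest at 35 d. The median of the glial list fell with age and that of the fat body list rose. The part of any of these cells in the per and tim values was not tested.

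Whether clock genes opposed each other between pools of one age was asked with deviations from the age mean, for all 28 pairs of genes. For gene means, which for per include 3 dim features, the strongest relation was that of per and cry, with r = -0.71 over 16 arrays (permutation p = 0.00994, within ages) and rho = -0.73 (p = 0.00381). After adjustment over 28 pairs these p-values were 0.278 and 0.107, so the relation did not pass. Without the 2 arrays farthest from the median of per (replicate 3 of 35 d and replicate 3 of 45 d) r was -0.47, and the relation rests in part on them. It was -0.80 on slide 1 and -0.40 on slide 2, and -0.67 in slide row 1 and -0.74 in slide row 2. With the brightest features r was -0.70 (permutation p = 0.0146, adjusted p = 0.149), rho was -0.53 (p = 0.0443, adjusted p = 0.401), and r was -0.56 without the 2 farthest arrays. With quantile normalization r was -0.81 (adjusted p = 0.0406), past 0.05. Without subtracting age means r was -0.75 (adjusted p = 0.0241), also past 0.05. That setting includes the differences between ages and permutes over all 16 arrays, so it does not concern pools of one age alone. With median scaling it was -0.33 (permutation p = 0.332, adjusted p = 0.580), rho was -0.31 (p = 0.307) and r was 0.32 on slide 2. With the means of each age and slide row subtracted r was -0.63 (permutation p = 0.0598, adjusted p = 0.559) and rho was -0.48 (p = 0.114). The relation thus depended on the scaling, and its call changed between settings.

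Single pools show what this relation is made of. Replicate 3 of 45 d was the lowest of its age for per, at -1.81, and the highest for cry, at 1.45. Replicate 4 of 45 d was the reverse, the highest for per at 0.88 and the lowest for cry at -0.98, and it is also the array with the lowest share of spots above background. At 35 d, replicate 3 was the highest for per at -0.13 and the lowest for cry at -0.35, while replicate 5 was the lowest for per at -1.99 with cry at 1.62. Some pools went against the relation. Replicate 6 of 45 d lay above its age mean by 0.60 for per and 0.41 for cry, and replicate 1 of 35 d by 0.19 and 0.47. The 7-d pools lay at most 0.45 from their age mean for both genes.

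**Figure D3:**
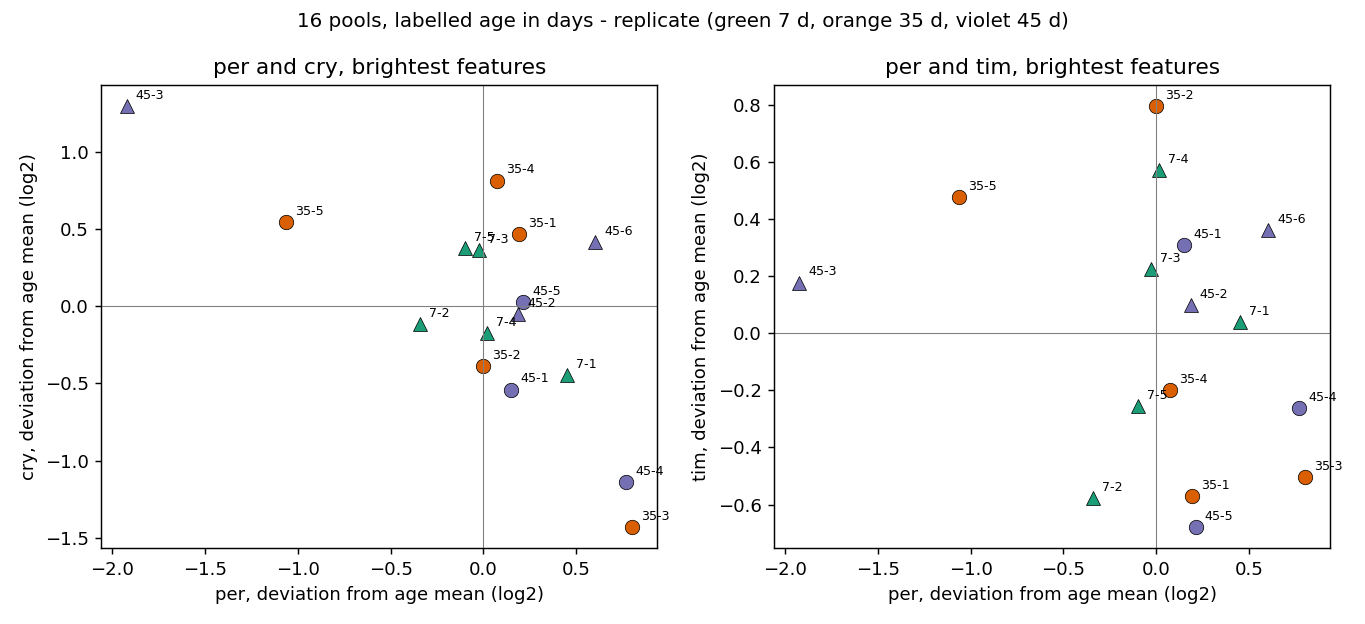
Deviation of each pool from its age mean (log2) for per (x axis) against cry (left, y axis) and tim (right, y axis), brightest features, labelled by age in days and replicate. For per and cry r was -0.70 (adjusted permutation p = 0.149), with replicate 3 of 45 d at the upper left and replicates 3 of 35 d and 4 of 45 d at the lower right. Other pools, such as replicate 6 of 45 d, lay above the age mean for both genes. For per and tim r was -0.26.

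None of the other pairs that run in opposite or equal phase in clock cells passed. With brightest features, r was 0.14 for tim and cry, -0.04 for vri and cry, 0.06 for per and Clk, -0.39 for tim and Clk and -0.12 for vri and Clk. Among pairs of like phase r was -0.26 for per and tim, 0.18 for per and vri, 0.12 for tim and vri and -0.16 for Clk and cry. The adjusted p-values of r were 0.542 to 0.926, and rho was 0.07, -0.24, 0.00, -0.45, -0.04, -0.32, 0.27, 0.00 and 0.25 with adjusted p-values of 0.468 to 0.996. Without the 2 farthest arrays r was 0.27, -0.29, -0.02, -0.39, 0.22, -0.11, 0.29, 0.26 and 0.20 in the same order. Gene means gave r of -0.20 to 0.36 for these pairs (adjusted p = 0.969 for each), but the means of per and tim include features that were below background on many arrays. The pairs with Clk rest on a feature that was above background on 5 arrays. Also with brightest features, cwo deviated with cry (r = 0.64, permutation p = 0.0159, rho = 0.62, p = 0.0255) and against per (r = -0.54, permutation p = 0.0157, rho = -0.52, p = 0.0422), both at an adjusted p of 0.149 for r and 0.401 for rho. Leaving out the 2 farthest arrays gave r = 0.78 and r = -0.27. Gene means, which include dim features of cwo and per, gave r = -0.04 for cwo and cry and 0.07 for cwo and per. After quantile normalization the gene means gave -0.11 and 0.28, so both relations were seen with brightest features only among these settings.

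**Figure D4:**
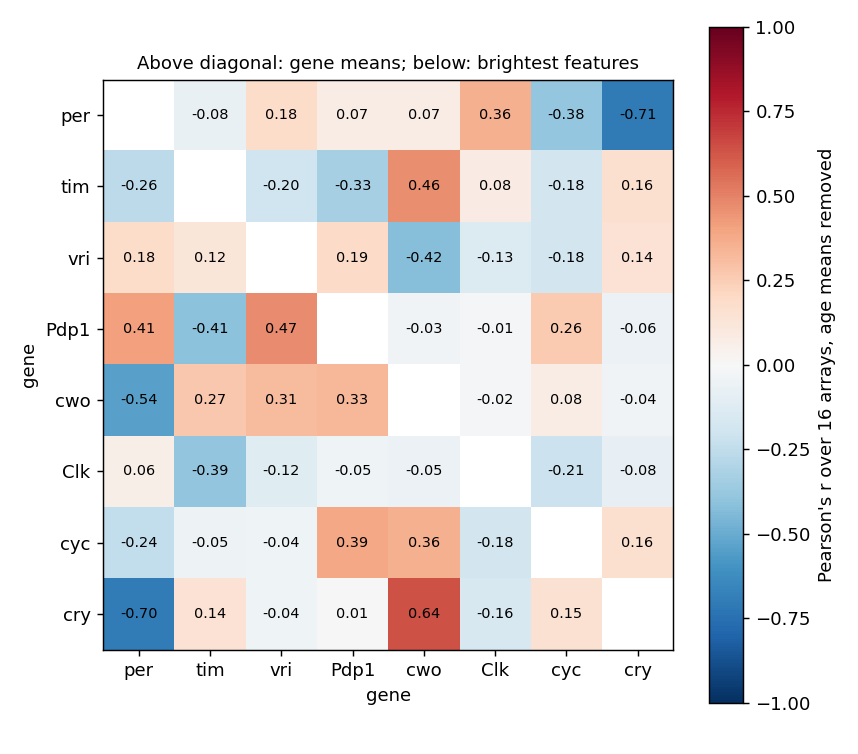
Pearson's r between clock genes over 16 arrays with age means removed (both axes list the genes, colour and numbers give r), gene means above the diagonal and brightest features below it. The darkest cells are per against cry, at -0.71 and -0.70.

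Genes whose signal followed per or tim over all 16 arrays were searched among 6168 genes with every feature well above background on at least 12 arrays. For the bright per feature the 3 genes with the highest r were sov, Rtf1 and CG8298, with r of 0.84, 0.83 and 0.81. At the other end of the same ranking, cry came last of the 6168 genes, at r = -0.83, and cyc was at rank 6086 with r = -0.58. For the bright tim feature the 3 genes were mEFTu2 (r = 0.82), CG12241 (r = 0.80) and CG41378 (r = 0.79), vri was at rank 985 with r = 0.24, and cry was at rank 5282 with r = -0.35. Arrays share age and slide position here, and the genes are the extremes of a search, so no p is given. Gene means of per and tim, which include dim features, shared 0 of their 3 highest genes with those of the bright features.

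A list of 37 other genes of the clock network was measured by 408 features. It was chosen with earlier results of these data known, so that a call within it is not independent of those results. Of these, 0 passed the threshold between 7 d and 35 d, 0 between 7 d and 45 d and 1, higher at 45 d, between 35 d and 45 d, and 1 passed the F test. At an unadjusted p under 0.05 the shares were 16.9%, 2.45% and 2.70%, below those of all features given above. The 49 features of 13 kinase, phosphatase and degradation genes, which act on clock proteins, held 3, 3 and 1 features at an unadjusted p under 0.05, and 0 past the threshold. The 15 features of 4 RNA regulators held 3, 2 and 1, the 15 of 5 transcription factors 2, 2 and 1, the 69 of 3 light input genes 18, 1 and 0, and the 260 of 12 output and membrane genes 43, 2 and 8.

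The feature past the threshold belongs to dysc, a scaffold protein that acts in the rhythmic output of the fly through a potassium channel. Its signals (A_09_P209420) were 1.39, 1.31, 2.07, 0.45 and 1.09 at 7 d, and -0.69, -0.95, -0.17, -0.45 and -0.08 at 35 d. At 45 d they ran from 1.08 to 1.82 with a median of 1.28. The 35-d arrays lay below all others, and the difference between 35 d and 45 d was 1.83 ± 0.23 (SE, adjusted p = 0.0482 by limma), with an F test adjusted p of 0.00383. This pairwise call was lost in 17 of 25 alternatives, each fit without 1 array among them, with adjusted p-values of 0.0605 to 0.239 in those fits. A second dysc feature (A_09_P188540) was 1.32 ± 0.37 higher at 45 d than at 35 d, and the other 6 of its 8 features lay between -1.44 and 0.15. With the lowest p between 7 d and 35 d after dysc came Psi, a splicing factor, at -1.53 ± 0.29 (adjusted p = 0.0776 by limma), and Fer2, a transcription factor of clock neurons, with an adjusted p of 0.0921. The Fer2 feature (A_09_P075716) had a mean of -4.63 ± 0.70 (SD, n = 5) at 7 d, where it was well above background on 5 of 5 arrays, and it was so on 2 of 5 at 35 d, so that no fold is given.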

How the data were processed

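Per the labels and methods, the authors hybridized doubly amplified, Cy3-labeled cDNA from sorted MNs to custom Agilent arrays, 1 pool per array, and read them with Agilent Feature Extraction. They deposited the background-adjusted intensity of each spot and a table of log2 values. The deposited table matched the values used here, once centered on each feature, and the median absolute difference between them was 0.00109 to 0.00534 on the 16 arrays. The log base and scale of that table were read from this match.

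Of 62976 spots per array, 1319 controls and spots with outlier flags were left out. Log2 intensity minus the 75th percentile of the array was used, and spots of a feature were averaged. A feature counted as well above background on an array when at least 0.5 of its spots were so flagged. Accessions named 33255 of 45366 features through the reference gene table, 80 of them by a shared transcript. The scanner files name build dm3, and no coordinates or sequences are given because none of that build were used here.

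Each pair of ages was fitted with limma 3.58.1 (R 4.3.3) on its own arrays, with Benjamini-Hochberg adjustment over all features or genes. A feature or gene passed at a change over 2-fold with an adjusted p under 0.05. The F test over the 3 ages had no fold minimum. Exact two-sided permutation tests compared single genes. Correlations used 100000 permutations within ages (Python 3.11.15). The fits were tested on simulated data. Same-numbered arrays had deviations that correlated at -0.06 to 0.13. These values are given without those of differently numbered arrays, so whether the numbers pair the arrays was not tested. The main fits did not pair arrays by number.

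All 8 members are named, together with other clock network genes past the threshold or lowest in p, and the 3 genes most like per and tim. The members and lists were chosen with earlier results of these data known. Alternatives were other scalings, background corrections, filters and models, blocks for slide, slide row and replicate, and each array left out. The normexp correction used the median spot signal with an offset of 50. Averaging only features above background on all 16 arrays was chosen after seeing the data. Arrays have no read depth, and precision is limited by how many arrays each age has.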

Additional observations from a re-analysis of the deposited data

Results flagged for a closer look

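Among 75 groups of arrays (25 features at 3 ages), 8 held an array that lay far from the others of its age by Dixon's test at the 95% level, which chance alone gives in about 1 of 20 groups. The per feature A_09_P044046 was at -1.81 in replicate 3 of 45 d against 0.26 to 0.88 in the other 5 pools, and this pool also had the highest cry signal of its age. The cwo feature A_09_P051051 was at 0.24 in replicate 1 of 35 d against -0.78 to -0.60 in the others. The vri feature A_09_P031491 was at -9.41 in replicate 2 of 7 d against -5.02 to -3.43, and at -5.96 in replicate 2 of 35 d against -2.96 to -1.84.

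The other 4 concerned dim features in which 1 array of the age was well above background. These were per A_09_P198720 at -5.66 in replicate 3 of 35 d, tim A_09_P030296 at -5.03 in replicate 1 of 35 d, cwo A_09_P045636 at -5.98 in replicate 5 of 45 d and Clk A_09_P033181 at -5.19 in replicate 2 of 45 d, each against values of -11.1 to -8.94 in the other arrays of its age. The causes were not tested.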

How the results depend on the processing

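Counts of clock features past the threshold between 2 ages changed with a floor on dim signals and without replicate 3 of 7 d. The floor gave 1 (tim) between 7 d and 35 d, where 3020 of all 45366 features passed, against 44 in the main fit. Without replicate 3 of 7 d the count between 7 d and 45 d was 1 (vri), where 0.414% of all features passed. The range was 0 to 1 over the fits that left out 1 array. The F test count of 1 was 0 with median scaling, with a variance trend and robust moderation and with the replicate block, and 0 to 3 with 1 array left out, the 3 being without replicate 4 of 35 d, where 8.34% of all features passed. Without that array 11% of all features passed between 7 d and 35 d. The F test adjusted p of tim was 0.306, 0.0803 and 0.216 in those settings and 0.0171 to 0.0988 with 1 array left out. For genes, the F test count was 1 with the brightest feature, where 34 of 12946 genes passed. It was also 1 with features above background on all 16 arrays, where 27 of 6864 genes passed. That last filter was chosen after seeing the data. The causes were not tested.

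Changes of sign were found for the values that follow. In the main setting no clock difference between 2 ages and no clock correlation had passed, so no passing clock value could change sign. From 7 d to 45 d, per turned to -0.0824 with slide row as a term or in the shared row, Pdp1 to 0.14, cyc to 0.23 and its second feature to 0.11 with median scaling, cry to -0.0024 with the slide as a block and to -0.0796 with the replicate block, its second feature to 0.42 with slide row as a term or in the shared row, and dysc to -0.00192 in both. From 7 d to 35 d, Pdp1 turned to -0.00345 with normexp. With 1 array left out, the ranges were -0.052 to 0.136 for Pdp1 and -0.15 to 0.23 for cwo from 7 d to 35 d, -0.262 to 0.0828 for cyc, -0.26 to 0.23 for cry and -0.10 to 0.31 for dysc from 7 d to 45 d, and -0.40 to 1.04 for the second vri feature from 35 d to 45 d. Among gene means, the correlation of per and tim (r = -0.08) became 0.0044 with quantile normalization, 0.11 with median scaling, 0.28 without subtracting age means, 0.0714 without the 2 farthest arrays and 0.51 within slide 2. That of tim and vri became 0.12 with brightest features and 0.015 within slide 2, that of tim and Clk -0.39 and that of vri and cry -0.0399 with brightest features, that of tim and cry -0.17 without subtracting age means, and that of per and Clk -0.59 within slide 2. That of vri and Clk became 0.27 and that of Clk and cry 0.20 without the 2 farthest arrays, and the latter 0.39 within slide 2. Apart from the F test call of tim, the clock genes had no call that the replicate block could lose, and it added none. With that block the features past the threshold on the whole array fell from 44 to 0 between 7 d and 35 d. They fell from 170 to 1 between 7 d and 45 d and from 7 to 1 between 35 d and 45 d. With the same block dysc lost its calls between 35 d and 45 d (adjusted p = 0.626 by limma) and in the F test (0.0578). With the plain t-test that the methods name, 0 clock features and 0 clock genes passed after Benjamini-Hochberg adjustment in each pair of ages.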
